A study of Homo sapiens with 6 samples.

Results

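Fibronectin, the thrombospondins, SPARC and its relative SPOCK1, tenascin C, periostin and the fibrillins are secreted glycoproteins of the extracellular matrix. The 10 genes FN1, THBS1, THBS2, THBS3, SPARC, SPOCK1, TNC, POSTN, FBN1 and FBN2 were taken by symbol from a table of 20610 genes, and each matched 1 row. They were measured by sequencing polyadenylated RNA of HT1080, an established human fibrosarcoma cell line, in 3 libraries labelled PGK1 knockout (KO) and 3 libraries labelled wild type (WT). The knockout was made with CRISPR-Cas9 against PGK1, which encodes phosphoglycerate kinase 1, an enzyme of lower glycolysis. No drug, dose or time is given for either group, and the batch label is shared by all 6 libraries. Whether the KO cells are 1 clone or a pool, and whether replicate libraries stem from separate cultures, is not stated in the labels. A p-value here thus reflects just the spread among the 6 libraries, which may be technical, and the loss of PGK1 cannot be told apart from other differences between the cell populations.

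As background, cells secrete fibronectin as a dimer and stretch it into fibrils through integrin receptors, and other matrix proteins assemble on those fibrils. Fibrillins form microfibrils that carry elastin and store latent TGF-beta. Thrombospondins, SPARC, SPOCK1, tenascin C and periostin are matricellular proteins, which tune adhesion, protease activity and growth factor signals more than they bear load. TGF-beta induces many of these genes in fibroblasts.

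The libraries held 30175903 to 47047186 counts. The targeted gene PGK1 had 7144, 5515 and 5234 counts in the KO libraries, against 55085, 62272 and 51171 in the WT libraries, which matches the labels in direction. Levels below are CPM (counts relative to the library total, corrected by TMM factors) unless FPKM, a level per gene length, is named. The summed level of 10 mesenchymal markers was 2019 to 2432 CPM in KO libraries and 8065 to 8447 CPM in WT libraries. Most of this was VIM, which averaged 1938 ± 221 CPM in KO and 7871 ± 196 CPM in WT libraries (SD, n = 3 each). Of the 8 tested, 6 fell and ZEB2 rose (63.2 CPM in KO, 50.7 CPM in WT). NT5E missed the threshold, an adjusted p under 0.05 in edgeR (1.12 CPM in KO, 1.23 CPM in WT). Over all tested genes 36.3% fell and 40.0% rose, so such calls are common here. FAP and THY1 stayed under 0.1 CPM on average in both groups. The summed level of 8 epithelial markers was 5.40 to 5.78 CPM in KO libraries and 1.72 to 2.94 CPM in WT libraries, with EPCAM at 0 counts throughout and 4 of the 8 passing the filter. ESRP1 made up much of the KO sum, at 2.63 CPM in KO and 0.0367 CPM in WT on average. CDH1 (0.964 CPM in KO, 0.0489 CPM in WT) and ESRP2 (0.873 CPM in KO, 0.246 CPM in WT) were also higher in KO. CLDN4 was lower, at 1.05 CPM in KO and 1.88 CPM in WT. The summed level of 7 blood cell markers was 120.0 to 137 CPM in KO and 359 to 375 CPM in WT, nearly all from CD68, a lysosomal protein, and PTPRC averaged 0.108 CPM in KO and 0 in WT. The summed level of 6 endothelial markers was 372 to 402 CPM in KO and 571 to 609 CPM in WT, mostly from TIE1. The part of these marker levels in the results below was not tested. In bulk RNA, fewer cells that express a gene and less RNA per cell cannot be told apart.

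Nearly all of these matrix genes were lower in KO cells, and tenascin C was higher. Of the 10 genes, 9 passed the filter on low counts. Of these 9, 8 fell (FN1, THBS1, THBS2, THBS3, SPARC, SPOCK1, FBN1 and FBN2) and TNC rose (edgeR, quasi-likelihood F-test, adjusted p under 0.05). Among all 13249 tested genes 76.4% changed, 36.3% lower and 40.0% higher in KO, so a call by itself is common in this comparison. With library size alone in place of TMM, 3781 of the changed genes were lower and 6613 higher, against 4815 and 5301 with TMM, and the median of all genes moved by 0.22 on the log2 scale. The 8 to 1 split of the matrix genes was the same under each of the 4 scalings tried. A fall of at least 2-fold was seen for 7 of the 9 genes, against 15.5% of all tested genes. A log2 fold change of -2 or lower was seen for 4, against 4.62% of all tested genes, and a change of -3 or lower for 2 (THBS1 and SPARC), against 1.44%. The median log2 fold change was -1.39 over the 9 genes and 0.05 over all tested genes. The KO and WT libraries did not overlap for any of the 9, a separation seen in 79.2% of tested genes. All KO libraries lay below all WT libraries for 8 of the 9, against 38.0% of tested genes, and above them for 1, against 41.2%.

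**Figure D1:**
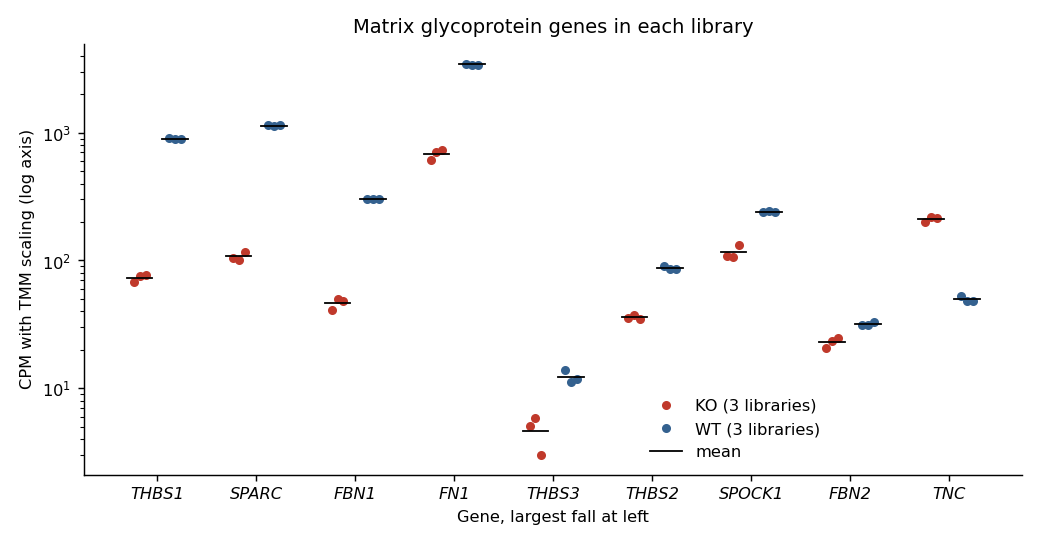
Level of 9 matrix glycoprotein genes in each library, in CPM on a log axis. Points are libraries, KO in red at the left and WT in blue at the right of each pair, and black lines are means of 3 libraries. The KO points lie below the WT points in every gene but TNC, and THBS3 has 1 KO library apart from the other 2.

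FN1 encodes fibronectin, the most abundant of these transcripts per unit length in both groups. It had 609, 711 and 733 CPM in the KO libraries, against 3475, 3378 and 3399 CPM in the WT libraries. Every KO library lay far below every WT library, and the KO libraries differed more among themselves. The KO mean was 20.03% of the WT mean (log2 -2.32, SE 0.0737, adjusted p = 9.74e-13, edgeR). By FPKM, FN1 ranked 585 to 767 among all genes in the KO libraries and 125 to 128 in the WT libraries. The gene lies on the minus strand of chromosome 2, at chr2:215360440-215436172 (GRCh38, GENCODE 29). One row holds all its splice forms, so the alternatively spliced exons of fibronectin were not resolved.

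THBS1 encodes thrombospondin 1, a trimeric protein that binds CD36 and CD47 and can activate latent TGF-beta. It had the largest fall of the 9 tested genes, with 67.6, 75.1 and 76.8 CPM in the KO libraries, against 905, 888 and 899 CPM in the WT libraries. The KO libraries stood close together and more than an order of magnitude below the WT libraries. The KO mean was 8.15% of the WT mean (log2 -3.62, SE 0.0625, adjusted p = 2.14e-15, edgeR), and only 102 of the 13249 tested genes had a lower fold change. The gene lies at chr15:39581079-39599466 on the plus strand. FSIP1, on the opposite strand, overlaps it and averaged 2.03 CPM in KO and 0.319 CPM in WT libraries, a change in the other direction.

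THBS2, the closest relative of THBS1 and likewise a trimer, fell less. It had 35.4, 37.2 and 35.0 CPM in the KO libraries, against 91.1, 85.7 and 86.0 CPM in the WT libraries. The groups stood clearly apart with little spread in either, and the log2 fold change was -1.29 (SE 0.0598, adjusted p = 5.64e-11, edgeR). THBS3, a member of the pentameric subgroup, was expressed at a low level, with 244, 212 and 95 counts in the KO libraries and 531, 485 and 427 in the WT libraries. In CPM these were 5.09, 5.81 and 2.99 in KO, against 13.9, 11.1 and 11.7 in WT. KO library 3 was lower than the other KO libraries, but all 3 lay below all WT libraries. The log2 fold change was -1.39 (SE 0.203, adjusted p = 5.95e-05, edgeR) and -1.22 without KO library 3. MTX1 overlaps THBS3 on the opposite strand and averaged 4.24 CPM in KO and 5.74 CPM in WT libraries. Reads of such overlapping pairs are uncertain, since no source used here gives the strand setting of the counting.

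SPARC encodes osteonectin, a collagen-binding protein of remodelling matrix. It had 105, 101 and 117 CPM in the KO libraries, against 1144, 1124 and 1147 CPM in the WT libraries. The groups did not approach each other, and the KO mean was 9.47% of the WT mean (log2 -3.40, SE 0.0649, adjusted p = 5.40e-15, edgeR). SPOCK1, a proteoglycan with a SPARC-like domain also called testican 1, had 109, 106 and 131 CPM in the KO libraries, against 240.4, 245 and 238 CPM in the WT libraries. It kept 47.9% of its WT level (log2 -1.06, SE 0.0710, adjusted p = 9.11e-09, edgeR), and its highest KO library was well below its lowest WT library.

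TNC encodes tenascin C, a hexameric protein of embryonic, wounded and tumour matrix that can weaken adhesion to fibronectin. It had 198, 217 and 215 CPM in the KO libraries, against 52.6, 48.5 and 48.5 CPM in the WT libraries. It was the only one of the 9 tested genes that was higher in KO, and every KO library exceeded every WT library. The rise was 4.21-fold (log2 2.07, SE 0.0587, adjusted p = 2.77e-13, edgeR), and a log2 fold change of 2 or higher was seen in 5.56% of tested genes. DEC1, which overlaps TNC on the opposite strand, averaged 0.152 CPM in KO and 0 in WT libraries. POSTN, which encodes periostin, a partner of fibronectin, collagen and tenascin C in matrix, was not detectably expressed. It had 2, 0 and 0 counts in the KO libraries and 0, 0 and 2 in the WT libraries, and was not tested. A level of up to 3 counts, or 0.0626 to 0.0945 CPM depending on the library, cannot be told from absence at this depth, which covers counting error only.

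FBN1, the main fibrillin of adult microfibrils, had 40.7, 50.3 and 48.0 CPM in the KO libraries, against 303, 301 and 302 CPM in the WT libraries. The WT libraries were almost equal, and the KO mean was 15.3% of the WT mean (log2 -2.71, SE 0.0707, adjusted p = 1.83e-13, edgeR). FBN2, a fibrillin used mainly in development, had 20.5, 23.6 and 24.8 CPM in the KO libraries, against 31.0, 31.1 and 32.8 CPM in the WT libraries. Every KO library lay below every WT library, and the KO mean was 72.7% of the WT mean. Its log2 fold change was -0.46 (SE 0.0827, adjusted p = 0.000128, edgeR). With library size alone in place of TMM it was -0.24 and still passed the threshold (adjusted p = 0.0153, edgeR). With limma on log2(FPKM + 1) and log2(FPKM + 0.1), likewise without a TMM factor, FBN2 missed the threshold (adjusted p = 0.0537 and 0.0628).

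**Figure D2:**
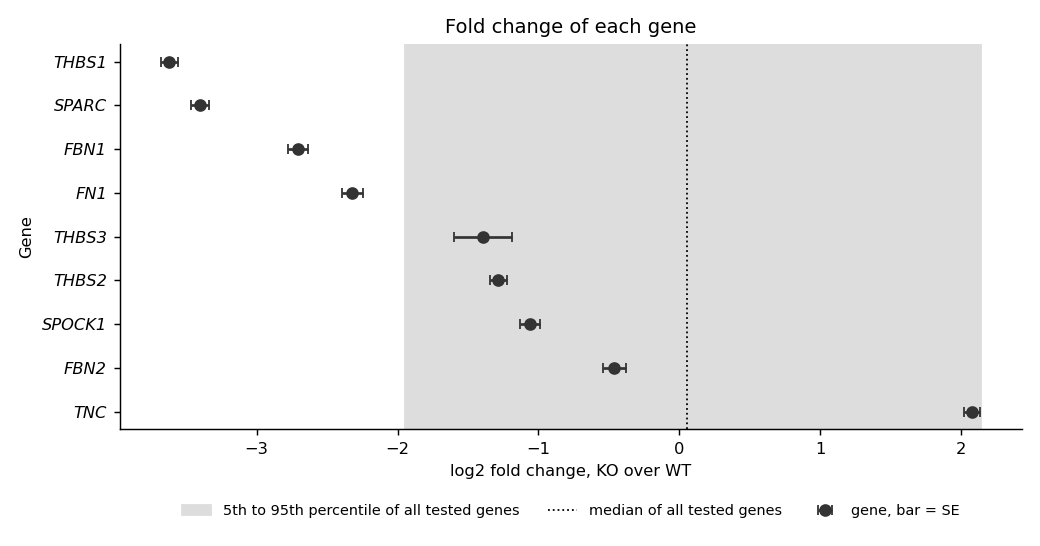
Log2 fold change, KO over WT, of 9 matrix glycoprotein genes with its SE. The grey band spans the 5th to 95th percentile of all tested genes (-1.95 to 2.14) and the dotted line is their median. THBS1, SPARC, FBN1 and FN1 lie below the band, and TNC lies near its upper edge.

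Promoter sequences are shown for the gene with the highest level (FN1), the gene with the largest fall (THBS1) and the gene that rose (TNC), as the DNA next to the start of genes that moved in opposite directions. They are the 250 bases before the start site of the RefSeq annotation (GRCh38.p14), written 5′ to 3′ on the strand of the gene. Capitals mark matches to the letters searched. For FN1 and TNC the GENCODE gene begins further upstream, inside the stretch shown.
FN1 (chr2:215436069-215436318, minus strand): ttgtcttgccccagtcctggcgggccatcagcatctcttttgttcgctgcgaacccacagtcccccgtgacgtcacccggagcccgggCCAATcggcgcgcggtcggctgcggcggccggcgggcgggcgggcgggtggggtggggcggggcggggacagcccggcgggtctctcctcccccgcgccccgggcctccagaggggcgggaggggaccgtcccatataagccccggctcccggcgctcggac
THBS1 (chr15:39580829-39581078, plus strand): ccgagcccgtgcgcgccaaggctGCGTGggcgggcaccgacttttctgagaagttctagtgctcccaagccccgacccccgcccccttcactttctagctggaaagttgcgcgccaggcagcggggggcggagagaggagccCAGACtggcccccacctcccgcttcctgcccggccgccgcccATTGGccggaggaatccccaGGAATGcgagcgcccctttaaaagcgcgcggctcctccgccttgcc
TNC (chr9:115118158-115118407, minus strand): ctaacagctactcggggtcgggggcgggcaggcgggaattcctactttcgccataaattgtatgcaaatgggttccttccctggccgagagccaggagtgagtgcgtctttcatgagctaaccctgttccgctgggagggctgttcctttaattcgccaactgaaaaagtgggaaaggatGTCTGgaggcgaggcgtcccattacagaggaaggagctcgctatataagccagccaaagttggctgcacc

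All 10 genes had a promoter in the RefSeq table, and 6 motifs were searched on both strands from 250 bases before to 50 bases after the start, with overlapping matches kept. The TEAD core GGAATG was in 4 of the 10 windows (FBN1, SPARC, THBS1 and THBS2) and in 14.0% of 35116 windows of all genes. The hypoxia response core, ACGTG or GCGTG, was in 5 of 10, against 48.4% of all windows, and the SMAD core CAGAC was in 5 of 10, against 45.3%. The AP-1 site TGAGTCA or TGACTCA was found for POSTN alone, which was not expressed, against 4.95% of all windows. The letters CCAAT were in 4 of 10, against 34.6%, and TATAAA in 2 of 10, THBS2 and POSTN, against 11.5%. In the FN1 window the single match was CCAAT, beginning 162 bases before the start. In the THBS1 window GGAATG began 46 bases before the start, CCAAT in reverse 66 bases before, CAGAC 108 bases before and GCGTG 227 bases before. In the TNC window CAGAC in reverse began 70 bases before the start, and the reverse of GCGTG lay in the transcribed part that is not shown. G and C made up 76.7% of the FN1 window, 70.0% of the THBS1 window and 57.3% of the TNC window, against a median of 58.7% over all windows. Distances are from the RefSeq start. For FBN1, FBN2 and THBS3 the GENCODE gene begins upstream of the whole window, and for SPARC at its upstream edge. Those windows thus lie within the annotated gene. For THBS2 and POSTN the GENCODE gene begins inside the window, as for FN1 and TNC. The matches describe letters and not bound sites.

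Per unit of length, the summed level of the 10 genes was 198, 218 and 221 FPKM in the KO libraries, against 932, 918 and 928 FPKM in the WT libraries. All KO libraries lay below all WT libraries, and the KO mean of 212 ± 12.1 FPKM was 22.9% of the WT mean of 926 ± 7.43 FPKM (SD, n = 3 each). A 2-sided exact permutation test over libraries gave p = 0.1, the smallest value that 3 against 3 allows.

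The make-up of this sum also differed between the groups. Fibronectin held 44.6 ± 1.51% of the sum in KO and 43.9 ± 0.226% in WT libraries (SD, n = 3 each), a difference smaller than the KO spread. SPARC held 15.3 ± 1.02% in KO and 31.7 ± 0.246% in WT, and THBS1 held 5.79 ± 0.0940% in KO and 14.0 ± 0.0392% in WT. TNC held 15.2 ± 0.567% in KO and 0.707 ± 0.0269% in WT, and SPOCK1 held 12.2 ± 0.977% in KO and 4.999 ± 0.113% in WT. Shares of a sum depend on each other, so a gene that fell less than the rest, such as SPOCK1, gained share while its level fell.

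**Figure D3:**
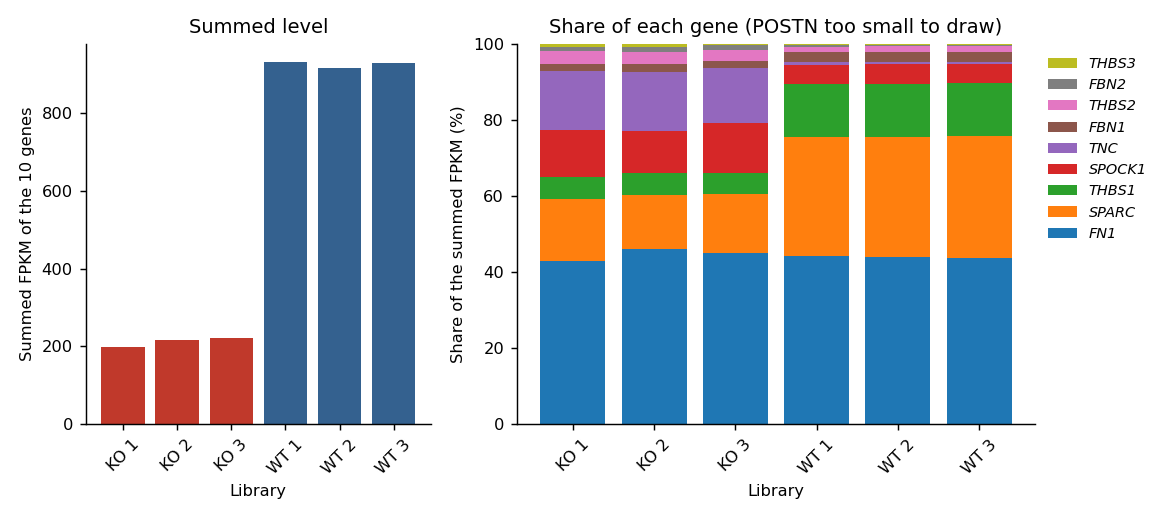
Summed FPKM of the 10 genes in each library (left) and the share of each gene in that sum (right). The sum is 198 to 221 FPKM in the KO libraries and 918 to 932 FPKM in the WT libraries, and the share of TNC is 15.2% on average in KO and 0.707% in WT.

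The order of the genes by FPKM changed in the middle. In KO libraries it ran FN1 (94.9 ± 8.29), SPARC (32.4 ± 1.74), TNC (32.2 ± 1.57), SPOCK1 (25.8 ± 2.46), THBS1 (12.3 ± 0.708), THBS2 (6.60 ± 0.338), FBN1 (4.28 ± 0.461), FBN2 (2.48 ± 0.209), THBS3 (1.38 ± 0.461) and POSTN (0.00479). In WT libraries it ran FN1 (406 ± 4.45), SPARC (294 ± 3.28), THBS1 (129 ± 0.934), SPOCK1 (46.3 ± 0.682), FBN1 (23.9 ± 0.0929), THBS2 (13.8 ± 0.418), TNC (6.54 ± 0.284), THBS3 (3.12 ± 0.365), FBN2 (2.93 ± 0.1002) and POSTN (0.00537). Neighbours in this order overlapped between libraries for SPARC and TNC in KO, and for THBS3 and FBN2 in WT. TNC stood beside SPARC in KO, and below THBS2 in WT.

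Members of 1 family differed in how far apart the groups lay. For 6 pairs of genes the difference of log2(FPKM + 0.1) was taken within each library and compared between groups. The pairs FN1 with TNC and TNC with POSTN join genes of different families. THBS1 minus THBS2 was 0.89 ± 0.10 in KO and 3.22 ± 0.04 in WT libraries (SD, n = 3 each), so the 9.38-fold excess of THBS1 over THBS2 in WT was 1.86-fold in KO. FBN1 minus FBN2 was 0.76 ± 0.07 in KO and 2.99 ± 0.04 in WT, and SPARC minus SPOCK1 was 0.33 ± 0.06 in KO and 2.66 ± 0.04 in WT. KO minus WT of these differences was -2.33, -2.23 and -2.33, all on the side of a lower level of the more abundant gene. THBS1 minus THBS3 was 3.11 ± 0.52 in KO and 5.33 ± 0.15 in WT, with KO library 3 apart because of its low THBS3 count. FN1 minus TNC was 1.56 ± 0.08 in KO and 5.94 ± 0.05 in WT, where fibronectin exceeded tenascin C 2.95-fold in KO and 62.1-fold in WT. TNC minus POSTN was 8.27 ± 0.17 in KO and 5.98 ± 0.16 in WT, which reflects TNC alone since POSTN was near 0. Groups did not overlap for any of the 6 pairs, and each exact permutation test (2-sided) gave p = 0.1, also after adjustment over the 6, the smallest value possible here. Such separation was not counted over other gene pairs, and the libraries of 79.2% of single tested genes did not overlap between groups.

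**Figure D4:**
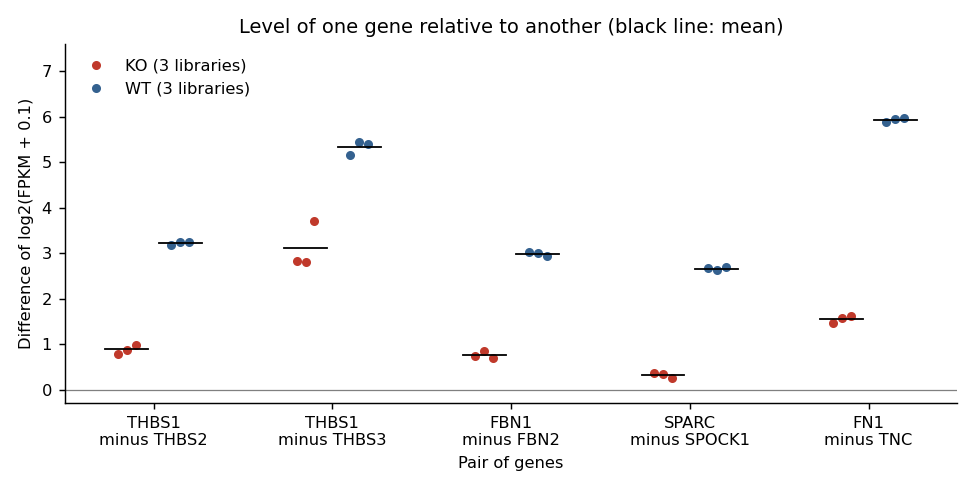
Difference of log2(FPKM + 0.1) between the genes of 5 pairs in each library, KO in red at the left and WT in blue at the right, with group means as black lines. In each pair the KO libraries lie below the WT libraries, and FN1 minus TNC is 1.56 on average in KO and 5.94 in WT.

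Genes that act with these proteins were grouped in 6 lists, some sharing members (TGFBI and LTBP1 each stand in 2). Their counts are to be read against all tested genes, of which 36.3% fell and 40.0% rose, with a median log2 fold change of 0.05. Among 13 family relatives 7 were tested; 4 fell, 2 rose and 1 missed the threshold, against 36.3% lower and 40.0% higher among all tested genes, and the median log2 fold change was -1.21. FSTL1, a secreted SPARC relative, fell to 77.4 ± 3.50 CPM in KO, against 253 ± 5.98 CPM in WT (SD, n = 3 each). THBS4, of the pentameric thrombospondins, fell to 0.685 CPM in KO, against 5.54 CPM in WT, and TGFBI, which resembles periostin, fell to 6.45 CPM, against 17.2 CPM. SMOC2, another SPARC relative and the tested gene next to THBS2 on chromosome 6, rose to 2.66 CPM in KO, against 0.106 CPM in WT.

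Of 20 partners in microfibrils and elastic fibres 15 were tested, 9 fell and 2 rose while 4 missed the threshold (median log2 -0.90), and 7 fell with library size alone and 10 with RLE factors. The share called was near the 76.4% of all tested genes. EFEMP1 and EFEMP2, the fibulins 3 and 4, fell to 64.7 and 8.33 CPM in KO, against 515 and 102 CPM in WT. FBLN2, a fibulin that binds fibronectin and fibrillin, fell to 23.1 CPM in KO, against 137 CPM in WT. LTBP4, a latent TGF-beta binding protein of microfibrils, fell to 50.8 CPM in KO, against 137 CPM in WT.

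Of 21 receptors for these proteins 16 were tested, of which 12 fell, 3 rose and 1 missed the threshold (median log2 -1.10), where 36.3% of all tested genes fell and 40.0% rose. ITGB3, the beta subunit of a vitronectin and fibronectin receptor, fell to 2.62 CPM in KO, against 41.7 CPM in WT (log2 -3.99, SE 0.0960). CD47, a thrombospondin receptor, fell to 25.1 CPM in KO, against 78.6 CPM in WT. The heparan sulfate proteoglycan SDC1 fell to 106 CPM in KO, against 295 CPM in WT, and LRP1, an endocytic receptor for thrombospondins, fell to 248 CPM, against 813 CPM. SDC4 lies on chromosome 20, where 264 of 522 protein-coding genes had no count in any library, against 3089 of all 20610 genes. The lists were thus read without this chromosome, but the shares over all tested genes include it. Leaving out the chromosome dropped SDC4, which had no count. The same step left out MMP9 and TGM2, which had at most 10 and 53 counts in a library.

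In the TGF-beta and SMAD list all 17 genes were tested, of which 13 fell, 2 rose and 2 missed the threshold (median log2 -0.91), beside 36.3% lower and 40.0% higher over all tested genes. CTGF and CYR61, matricellular proteins now called CCN2 and CCN1, fell to 251 and 834 CPM in KO, against 3484 and 2220 CPM in WT (log2 -3.80, SE 0.0632, and -1.41, SE 0.0556). SMAD3, a transcription factor of TGF-beta signalling, fell to 64.8 CPM in KO, against 193 CPM in WT.

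Of 18 proteases that can cleave these proteins 11 were tested, of which 6 fell, 3 rose and 2 missed the threshold (median log2 -0.45), a share called near the 76.4% of all tested genes. MMP3, stromelysin 1, rose to 674 CPM in KO, against 1.96 CPM in WT, and the plasminogen activators PLAT and PLAU fell to 28.0 and 43.4 CPM, against 372 and 379 CPM. MMP14, a membrane-bound collagenase, fell to 756 CPM in KO, against 5951 CPM in WT. Of 16 helpers of assembly and secretion 15 off chromosome 20 were counted, of which 14 fell and 1 rose (median log2 -1.36). Of all tested genes 36.3% fell and 40.0% rose. With library size alone 13 of the helpers fell. TGM2, on chromosome 20, averaged 0.670 CPM in KO and 1.15 CPM in WT. It was left out of the count and missed the threshold (log2 -0.75, adjusted p = 0.0774, edgeR). SEC24D and SEC23A, of the COPII coat that carries secreted proteins out of the endoplasmic reticulum, fell to 23.4 and 99.7 CPM in KO, against 188 and 375 CPM in WT. The chaperones PDIA4 and HSP90B1 fell to 101 and 649 CPM in KO, against 303 and 2214 CPM in WT. All genes named from the 6 lists as rising or falling did so with an adjusted p of 5.97e-07 or lower (edgeR). They were picked for the smallest p of each list, and their KO and WT libraries did not overlap, as for 79.2% of all tested genes.

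**Figure D5:**
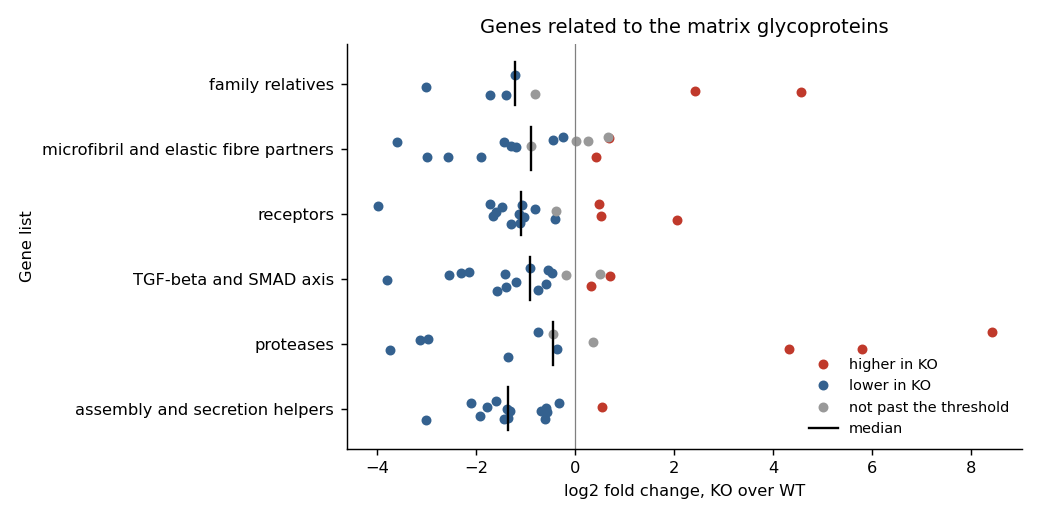
Log2 fold change, KO over WT, of the tested genes of 6 related lists, with chromosome 20 left out. Points are genes, red for higher and blue for lower in KO at an adjusted p under 0.05, grey for neither, and black lines are medians. Medians lie between -1.36 and -0.45, and the protease list holds the largest rise, MMP3 at 8.41.

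Some other genes followed the same profile. Among 10004 tested genes with a mean of at least 5 CPM, distance was measured between log2 profiles over the 6 libraries, each centred on its mean. Nearest to FN1 were CORO2A (distance 0.0553), SORT1 (0.105) and CDK1 (0.124), with log2 fold changes of -2.36, -2.34 and -2.29. Nearest to THBS1 were LOXL2 (0.0666), a lysyl oxidase of collagen cross-linking, PAEP (0.132) and MSMO1 (0.142), a sterol enzyme, with -3.62, -3.60 and -3.55. With 2 groups of 3 libraries this likeness rests mainly on an equal fold change.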

How the data were processed

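RNA of 3 PGK1 KO and 3 WT libraries of HT1080 cells was compared. The deposited table holds whole-number read counts per gene symbol, and a second deposited table holds FPKM values. For every one of 17521 genes with a count, the authors' FPKM match the count over the library total and 1 gene length (relative tolerance 1e-06), so they add a length scale and no new measurement. Tools named in the submitters' processing notes are fastp and HISAT, with build hg38. How reads were assigned to genes, with which annotation and strand setting, is not given in the sources used here.

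Counts were tested with edgeR 4.0.16 (R 4.3.3; TMM, filterByExpr, robust quasi-likelihood F-test, no term besides group), p-values being adjusted by Benjamini-Hochberg over 13249 genes with a threshold of 0.05. The SE is the log2 fold change divided by the square root of F. TMM factors were 1.053 to 1.097 in KO and 0.921 to 0.929 in WT. A count of 1 equalled 0.0209 to 0.0315 CPM. Single values were compared with exact permutation tests over libraries (SciPy 1.17.1). The fit was also run on simulated counts in which few genes changed, equally up and down. In these data 76.4% of tested genes changed, so that run cannot check the scaling. No library was a copy of another: within groups, counts of any 2 libraries gave a chi-square of 3.69 or more per degree of freedom. KO library 3 stood furthest from its group. Coordinates and overlaps come from GENCODE 29, promoters from RefSeq.

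The genes and lists were chosen with earlier results of these data known. Named genes were PGK1, the 10 members, up to 4 genes per list with the smallest p, and the 3 nearest profiles of FN1 and THBS1. The values of 1 gene named by this rule are not reported here. Protein sequences were not used here. Alternatives were other scalings, filters and thresholds, a replicate block, no robust option, DESeq2 1.42.0, limma 3.58.1 (voom, or log2 FPKM with a pseudocount of 1 or 0.1), and each library left out in turn.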

Additional observations from a re-analysis of the deposited data

How the results depend on the processing

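The direction of all 9 tested genes held under each of 17 alternatives, and the call held in 151 of 153 cases. The 2 exceptions were FBN2 with limma on log2(FPKM + 1) and log2(FPKM + 0.1), where its log2 fold change was -0.18 and -0.23; the cause was not tested. With each library left out in turn, 9 genes were called each time; log2 fold changes ranged from -2.42 to -2.26 for FN1, from -3.70 to -3.58 for THBS1, from -1.60 to -1.22 for THBS3 and from -0.57 to -0.40 for FBN2. Over all genes, 10116 were called, 9687 to 10676 with a library left out, and 4104 when a change of at least 2-fold was also asked for. The summed level of the 10 genes in KO was 0.229 of WT, 0.226 without FN1, 0.211 with CPM in place of FPKM and 0.225 to 0.237 with a library left out. No pairing by replicate number was seen: deviations of same-numbered KO and WT libraries correlated at -0.010, 0.013 and -0.028. Libraries of unlike number correlated at -0.043 to 0.039. With 3 libraries per group this check cannot show that the libraries were unpaired. With a replicate block 9986 genes and the same number of matrix genes, 9, were called. Depth limits THBS3, with 95 to 531 counts, and POSTN, with at most 2.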

Other observations

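Genes beside the matrix genes on their chromosomes were higher or lower in KO about as often as tested genes in general. Of the 20 nearest tested neighbours, 1 on each side, 10 were higher, 6 lower and 4 missed the threshold (edgeR, adjusted p under 0.05), with log2 fold changes from -1.07 to 4.56, and 1 of the 20 fell by at least 2-fold. Over all tested genes 40.0% were higher, 36.3% lower and 15.5% lower by at least 2-fold, so these counts show nothing particular to the neighbours. ATIC, 10667 bases from FN1, averaged 227 CPM in KO and 179 CPM in WT libraries. GPR176, 199566 bases from THBS1, averaged 143 CPM in KO and 301 CPM in WT libraries. DUT, 64933 bases from FBN1, averaged 80.7 CPM in KO and 62.5 CPM in WT libraries, and SLC12A2, 68221 bases from FBN2, averaged 53.8 CPM in KO and 16.5 CPM in WT libraries. PAPPA, the neighbour of TNC at higher coordinates, averaged 129 CPM in KO and 128 CPM in WT libraries. These neighbours were chosen by position, and those named here after their values were seen.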
